A study of Mus musculus with 8 samples.

Results

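The 7 genes described here are Serpinb2, Serpinb3a, Serpinb3b, Serpinb3c, Serpinb5, Serpinb11 and Serpinb12, members of the clade B serpin cluster on mouse chromosome 1. They were taken by symbol from a deposited comparison of 20152 genes that lists 18 Serpinb genes, so 11 other Serpinb genes remain for comparison. RNA was sequenced from back skin of mouse embryos at E14.5, with 4 samples of the GNAQ R183Q genotype (labelled mutant) and 4 wild-type control samples, which the submitters describe as biologically independent. GNAQ encodes the alpha subunit of the G protein Gq. The labels used here do not say which cells carry the changed protein, how it was introduced, or the strain, sex and litter of the embryos. All samples carry 1 shared batch label. The 7 genes were chosen by their fold changes and p-values in this comparison, so those values are a description, with no test of the group. Gnaq RNA itself stood at 2086 normalised counts in GNAQ R183Q skin and 1960 in wild-type skin (log2 fold change 0.09, adjusted p 0.804 by the authors' DESeq2), a count that does not separate the alleles.

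Serpins are protease inhibitors that offer an exposed stretch, the reactive centre loop, as bait. A protease that cuts the loop is dragged across the serpin as the loop inserts into the body of the protein, and both are trapped. Clade B serpins lack the usual secretion signal and act mainly inside cells, and several of them are made in stratified epithelia as keratinocytes leave the basal layer. They are not all inhibitors of serine proteases: maspin, the product of Serpinb5, does not trap proteases, and human relatives of the Serpinb3 proteins also inhibit cysteine cathepsins.

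All 7 genes fell in GNAQ R183Q skin and 0 rose, by the authors' DESeq2 adjusted p under 0.05. By the same threshold 2.46% of all genes tested were called lower, 0.63% higher and 3.09% in either direction. Since these values chose the 7 genes, nothing is read from that contrast. The median log2 fold change of the 7 was -1.28, against 0.01 over all genes, and the levels implied for the 7 genes summed to 3011 normalised counts in GNAQ R183Q skin, against 7890 in wild-type skin, or 38.2% of the wild-type sum. Implied levels are the genotype means that follow from the authors' mean expression and fold change with 4 libraries each, and implied intervals follow from the fold change and its p-value with normal errors. In bulk skin, fewer cells of a type and less RNA per cell cannot be told apart. A linear model of log2 CPM rebuilt from the mean z-scores, which shares no spread between genes, called 0 of the 7 and 0 of all 20152 genes after adjustment. In that model the 7 had unadjusted p from 0.000205 to 0.0173, all under 0.05, and 1311 lower and 1170 higher genes of the table were also under 0.05.

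**Figure D1:**
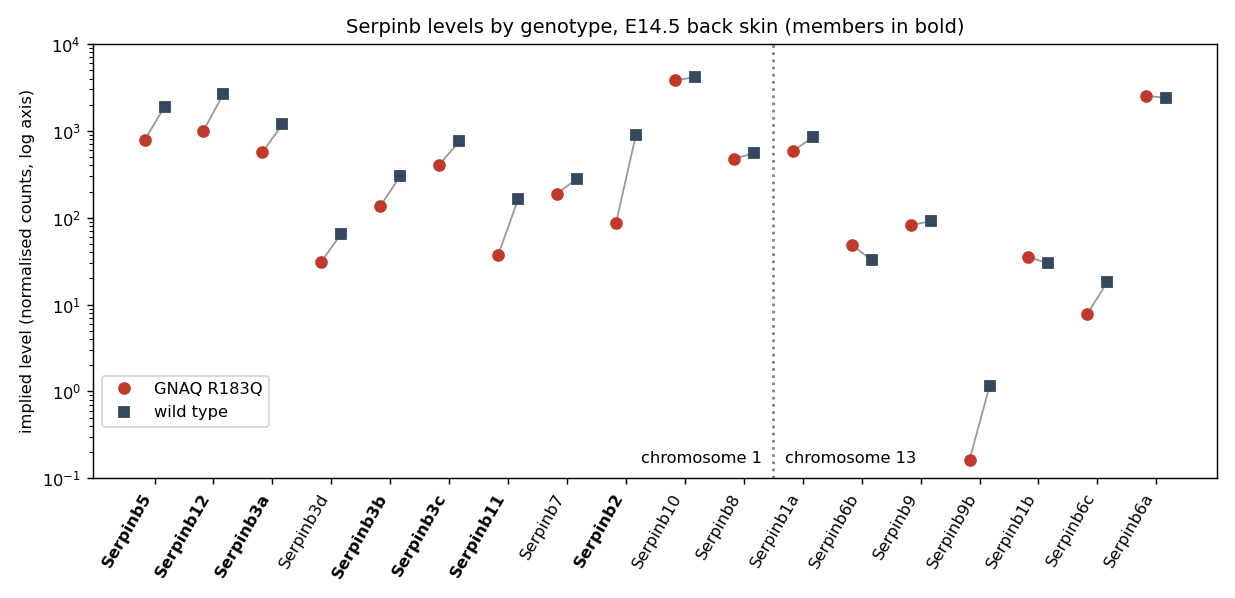
Implied levels of 18 Serpinb genes in normalised counts on a log axis, with GNAQ R183Q (circles) left of wild type (squares) and the 7 genes in bold. The 7 lie lower in GNAQ R183Q skin, while Serpinb10 and Serpinb6a lie close together in both genotypes.

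Serpinb2 encodes plasminogen activator inhibitor type 2, an inhibitor of urokinase that is made by differentiating keratinocytes and by macrophages. It stood at 86.5 normalised counts in GNAQ R183Q skin, against 906 in wild-type skin. The authors' deposited table puts its log2 fold change at -3.39 (DESeq2 adjusted p 1.34e-17), and the implied 95% interval ran from -4.09 to -2.68. Only 0.372% of all genes had a lower log2 fold change. The interval of Serpinb2 did not overlap those of Serpinb12, Serpinb5, Serpinb3b, Serpinb3a or Serpinb3c. It overlapped that of Serpinb11 alone, and the other 15 of the 21 pairs of these genes overlapped as well. These intervals come from the same libraries, and no difference between genes was tested.

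Serpinb11, whose mouse protein inhibits trypsin-like proteases, was the least expressed of the 7. It stood at 36.9 normalised counts in GNAQ R183Q skin, against 164 in wild-type skin. Its log2 fold change was -2.15 (DESeq2 adjusted p 0.000300, both from the authors' deposited table), within an implied 95% interval of -3.05 to -1.25. Serpinb12, another inhibitor of trypsin-like proteases, was the most expressed of the 7 and fell to 999.6 normalised counts in GNAQ R183Q skin, against 2683 in wild-type skin. For this gene the authors' deposited table has -1.42 on the log2 scale (DESeq2 adjusted p 3.19e-06), and the implied 95% interval was -1.92 to -0.93.

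Serpinb5, the maspin gene, is known for effects on cell adhesion and migration rather than for trapping proteases. It stood at 779 normalised counts in GNAQ R183Q skin, against 1895 in wild-type skin. Maspin is listed at -1.28 on the log2 scale (DESeq2 adjusted p 1.27e-09, both from the authors' deposited table), and its implied 95% interval was -1.64 to -0.92. Its implied standard error of 0.18 was the smallest of the 7.

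Serpinb3a, Serpinb3b and Serpinb3c belong to a mouse expansion related to the human squamous cell carcinoma antigens SERPINB3 and SERPINB4. Serpinb3a stood at 566 normalised counts in GNAQ R183Q skin, against 1184 in wild-type skin, with -1.06 as its log2 fold change (authors' deposited table) and -1.54 to -0.59 as the implied 95% interval. Serpinb3b stood at 135 normalised counts in GNAQ R183Q skin, against 303 in wild-type skin, at a log2 fold change of -1.17 and an interval from -1.59 to -0.75. Serpinb3c stood at 407 normalised counts in GNAQ R183Q skin, against 755 in wild-type skin, at -0.89 and an interval from -1.38 to -0.40. The 3 changes lie within each other's intervals. By the authors' DESeq2 their adjusted p were 0.000997 for Serpinb3a, 8.67e-06 for Serpinb3b and 0.0165 for Serpinb3c. Serpinb3c had the smallest change and the largest p of the 7, and 6.004% of all genes had a lower log2 fold change. The fourth gene of this expansion in the table, Serpinb3d, is close to Serpinb3a in fold change but far less expressed. It stood at 31.1 normalised counts in GNAQ R183Q skin, against 65.8 in wild-type skin. Serpinb3d is at -1.08 on the log2 scale (DESeq2 adjusted p 0.181, both from the authors' deposited table), and its implied interval was wider, -1.93 to -0.23.

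The 4 Serpinb3 genes are near copies, which bears on how far their counts can be told apart. Their coding sequences were 86.3% to 93.1% identical in 6 pairs, against 50.5% to 57.4% in the other 18 pairs of the 7 genes. The longest coding transcript of each gene was searched against all annotated transcripts of other genes. Between 12.2% and 15.1% of the 50-base stretches of the Serpinb3a, Serpinb3b, Serpinb3c and Serpinb3d coding transcripts also occur in a transcript of another gene, against 0% for Serpinb2, Serpinb5, Serpinb11 and Serpinb12. How the authors' counting treated reads that match several genes is not given in the sources used here, so the split of counts among Serpinb3 genes is uncertain.

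**Figure D2:**
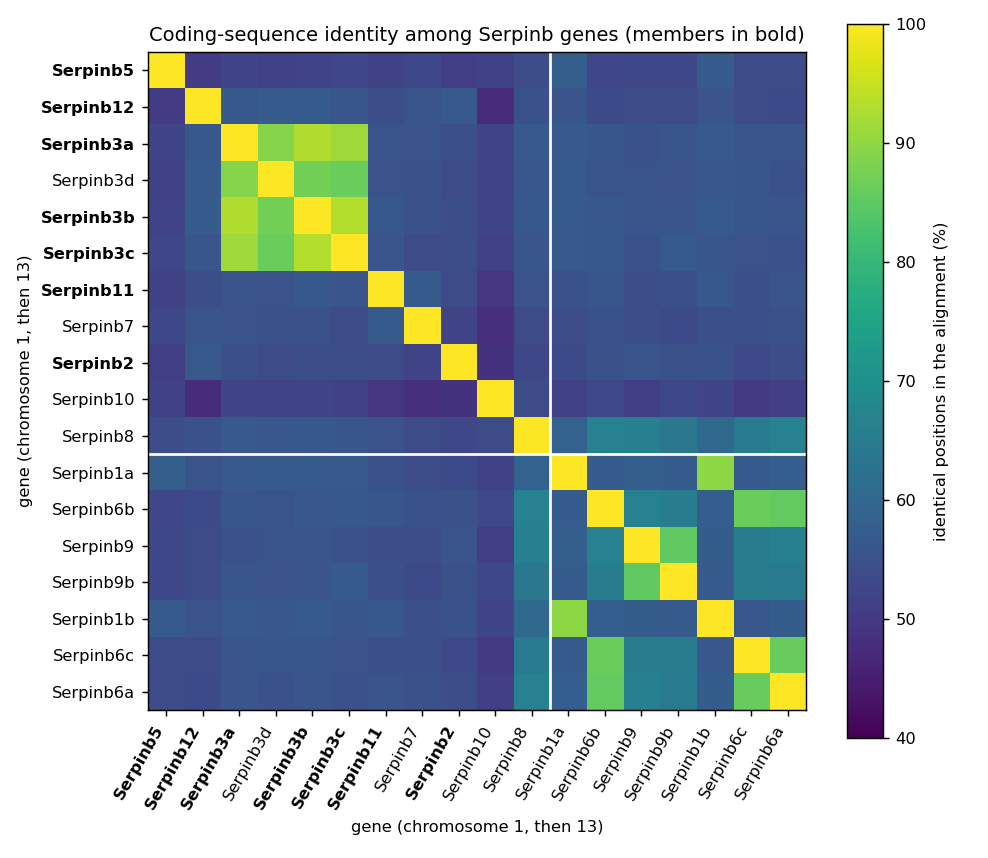
Identity of coding sequences between 18 Serpinb genes, as the percent of alignment positions that are identical, with genes in chromosome 1 and then chromosome 13 order and the 7 genes in bold. The Serpinb3 genes form a block of 86.3% to 93.1%, while pairs of the 7 outside that block reach at most 57.4%.

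The stretch that codes for the reactive centre loop was compared between the Serpinb3 genes and maspin. It runs from the hinge to the start of the conserved segment after the loop. It is shown 5′ to 3′ from GENCODE vM21 transcripts of GRCm38, with capitals at bases that are unlike the aligned base of Serpinb3a.
Serpinb3a: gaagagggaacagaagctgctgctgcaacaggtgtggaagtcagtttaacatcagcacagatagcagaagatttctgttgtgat
Serpinb3b: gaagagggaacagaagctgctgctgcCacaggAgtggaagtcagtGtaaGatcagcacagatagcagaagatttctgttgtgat
Serpinb3c: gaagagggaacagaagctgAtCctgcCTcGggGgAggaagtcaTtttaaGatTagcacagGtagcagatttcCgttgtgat
Serpinb3d: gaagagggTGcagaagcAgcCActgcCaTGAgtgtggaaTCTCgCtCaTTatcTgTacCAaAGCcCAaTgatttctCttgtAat
Serpinb5: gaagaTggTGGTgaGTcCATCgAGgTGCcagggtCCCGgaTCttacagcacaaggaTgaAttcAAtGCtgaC
Serpinb3b differed from Serpinb3a at 4 bases of this stretch, Serpinb3c at 12 bases with a gap of 3, and Serpinb3d at 29 bases. Serpinb3a and Serpinb3d were 65.5% identical in this stretch and 91.0% identical in the rest of the coding sequence. For Serpinb3a and Serpinb3c these values were 82.1% and 91.9%. Serpinb3a and Serpinb3b were more alike in this stretch, at 95.2%, than in the rest, at 92.7%. Serpinb5 was 51.2% identical to Serpinb3a in this stretch and 52.5% over the whole coding sequence. In inhibitory serpins the hinge is rich in small residues such as alanine, which let the loop insert. Of the first 10 codons of the stretch, 4 code for alanine in Serpinb3a, Serpinb3b, Serpinb11 and Serpinb12, 2 in Serpinb2 and Serpinb3c, and 0 in Serpinb5. The 7 genes include loops of differing sequence, among them that of the non-inhibitory maspin.

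Levels can be set between genes once divided by transcript length. Among the 7, per kilobase of the longest coding transcript, Serpinb12 led with 592 normalised counts per kilobase in GNAQ R183Q skin and 1589 in wild-type skin. Serpinb3a followed, with 350 in GNAQ R183Q skin and 731 in wild-type skin, and then Serpinb5, with 292 in GNAQ R183Q skin and 709 in wild-type skin. Serpinb3c had 245 normalised counts per kilobase in GNAQ R183Q skin and 455 in wild-type skin. Serpinb2 had 43.4 in GNAQ R183Q skin and 454 in wild-type skin, so it stood level with Serpinb3c in wild-type skin and below Serpinb3b in GNAQ R183Q skin. Serpinb3b had 81.7 normalised counts per kilobase in GNAQ R183Q skin and 183.3 in wild-type skin, and Serpinb11 had 17.7 in GNAQ R183Q skin and 78.7 in wild-type skin. No error of a level was available, so whether neighbours in this order differ was not tested.

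No value per library was used, but the mean and median z-score of each genotype limit where the 4 libraries can lie. With 4 values, the median is the midpoint of the 2 middle libraries, and the mean then fixes the midpoint of the 2 outer ones. For each of the 7 genes these values leave no arrangement in which a GNAQ R183Q library reaches a wild-type library, so all 4 lay below all 4. Of all genes, 3.83% were separated in this way with lower values in GNAQ R183Q skin and 2.56% with higher values. Among the genes called by the authors' DESeq2, 88.4% were separated, and all 7 are called genes. The limits rest on z-scores scaled by the sample SD over 8 libraries. For Serpinb2 the mean z-score was -0.89 in GNAQ R183Q skin and 0.89 in wild-type skin. The highest GNAQ R183Q library lay at a z-score of -0.28 or below, and the lowest wild-type library at 0.35 or above. In units of the within-genotype SD, the difference of the genotype means was -5.65 for Serpinb2 and -2.30 for Serpinb3c, the extremes of the 7. For Serpinb12 the wild-type libraries were uneven, with the 2 middle ones centred on 0.57 and the 2 outer ones on 1.11, so at least 1 wild-type library stood high.

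**Figure D3:**
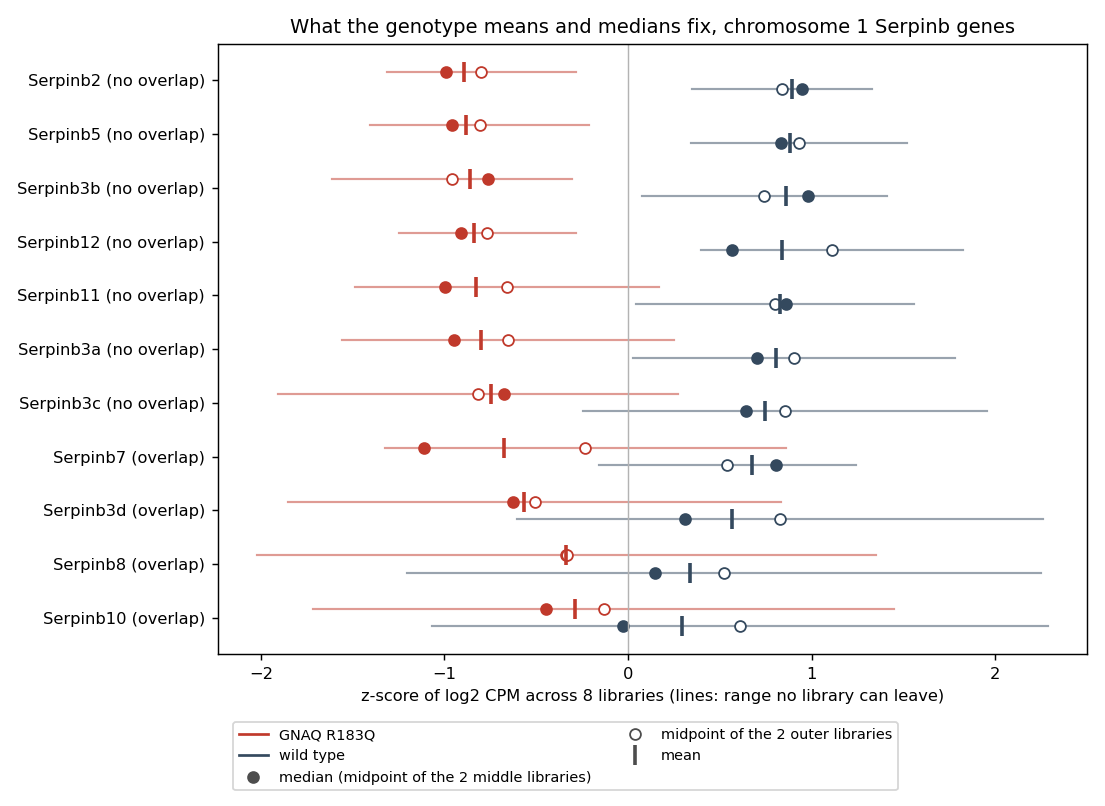
Z-scores of log2 CPM for 11 chromosome 1 Serpinb genes, with GNAQ R183Q above wild type in each row; filled circles are medians, open circles are midpoints of the 2 outer libraries, ticks are means and lines are limits for any library. Limits of the genotypes may cross in the plot where both extremes cannot hold at once, as for Serpinb3c, whose genotypes are still fully separated.

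Within the chromosome 1 cluster not every Serpinb gene passed the threshold. The RefSeq annotation of GRCm38.p6 places 12 Serpinb genes side by side there, of which 11 are in the table, and Serpinb13 is not analysed here. All 11 had negative log2 fold changes, and the 4 that were not among the 7 did not pass the threshold. Since the 7 were chosen by their fold changes and p-values, nothing is read from this split. Serpinb7, known from a hereditary palmoplantar keratosis in humans, lies between Serpinb11 and Serpinb2. It stood at 188 normalised counts in GNAQ R183Q skin, against 282 in wild-type skin, with -0.58 as its log2 fold change (DESeq2 adjusted p 0.182, both from the authors' deposited table) and -1.04 to -0.12 as the implied interval. Its middle GNAQ R183Q libraries were centred on a z-score of -1.11 but the outer ones on -0.23, and its genotypes must overlap. Serpinb10, next to Serpinb2, and Serpinb8, beyond Serpinb10, did not pass the threshold either. The authors' deposited table has Serpinb10 at -0.11 (implied interval -0.38 to 0.16) and Serpinb8 at -0.22 (implied interval -0.62 to 0.19). Serpinb10 was the most expressed gene of the cluster, at 3829 normalised counts in GNAQ R183Q skin and 4140 in wild-type skin. The 7 genes made up 39.96% of the summed level of the 11 cluster genes in GNAQ R183Q skin, against 61.0% in wild-type skin. A lower share in GNAQ R183Q skin follows from the choice of the 7 by their fold changes. Of the 50-base stretches of the Serpinb10 coding transcript, 2.88% also occur in a Serpinb2 transcript other than its longest coding one, which shares none.

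The 5 tested genes on each side of the cluster had log2 fold changes between -0.20 and 0.32, and 0 of the 10 passed the authors' DESeq2 threshold or an unadjusted p of 0.05. Of all genes, 3.09% passed that threshold, and 1658 lower and 1197 higher of 20152 genes had an unadjusted DESeq2 p under 0.05. The 10 are too few to read a lack of change from these counts. The nearest were Vps4b, an endosomal ATPase gene, at -0.03 (implied interval -0.19 to 0.13), and the cadherin gene Cdh7, at -0.18 (implied interval -0.97 to 0.62), both from the authors' deposited table. Bcl2, a survival gene 3 places before Serpinb5 in this order, was at -0.09 with an interval from -0.36 to 0.18.

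**Figure D4:**
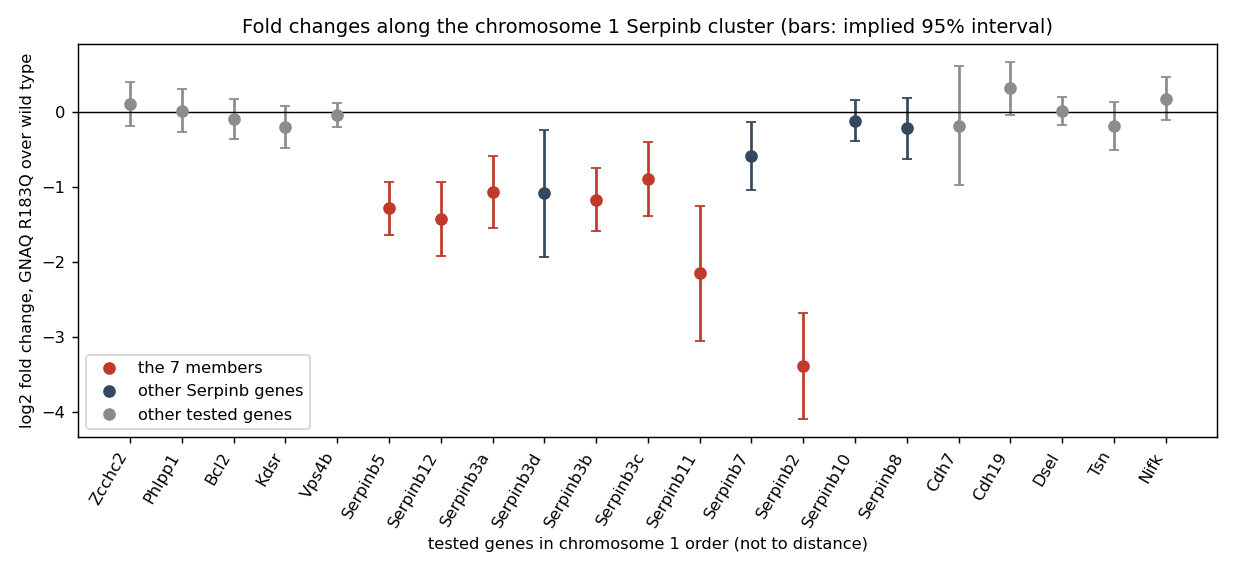
Log2 fold change between GNAQ R183Q and wild-type skin (GNAQ R183Q on top) for 21 tested genes in chromosome 1 order, with bars for the implied 95% interval. The 7 genes lie between -3.39 and -0.89, and the flanking genes between -0.20 and 0.32.

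The 7 clade B serpin genes of chromosome 13 in the table had a median log2 fold change of -0.14. Over all 20152 genes, 3.09% passed the authors' DESeq2 threshold, and 1658 lower and 1197 higher genes had an unadjusted p under 0.05. Of the 7 on chromosome 13, 0 passed the threshold, and 1 lower gene had an unadjusted p under 0.05. That gene was Serpinb1a, an inhibitor of neutrophil elastase, at 582 normalised counts in GNAQ R183Q skin and 847 in wild-type skin. It is listed at -0.54 (DESeq2 adjusted p 0.0987, authors' deposited table), with -0.92 to -0.17 as the implied interval. Serpinb6a, a widely expressed inhibitor, stood at 2543 normalised counts in GNAQ R183Q skin and 2394 in wild-type skin, with 0.09 as its log2 fold change and -0.23 to 0.41 as the interval; its reads may also come from 3 overlapping tested genes. Serpinb9, a granzyme B inhibitor, was at -0.14 with an interval from -0.63 to 0.35. Serpinb6b was at 0.58 (interval -0.14 to 1.30) and Serpinb1b at 0.23 (interval -0.46 to 0.93), by the authors' deposited table. Serpinb6c and Serpinb9b averaged under 26.8 normalised counts and had intervals that span 0.

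RefSeq promoters of GRCm38.p6, from 250 bases before to 50 after each annotated start, were searched on both strands for letters of known factors. AP-1 is a Fos and Jun family dimer that is active in keratinocytes. It was searched as TGANTCA with any base at N, which is wider than its usual letters TGACTCA and TGAGTCA. Promoters of Serpinb2, Serpinb5, Serpinb11 and Serpinb12, or 4 of the 7, held TGANTCA. Every match in these 4 genes had A or T at N, so none had the usual letters. Whether AP-1 binds the matches was not tested. TGANTCA also stood in promoters of Serpinb7, Serpinb8 and Serpinb10, whose changes did not pass the threshold. It stood in 0 of the 6 chromosome 13 Serpinb genes with a promoter sequence. Of all 32851 such windows, 7.81% hold TGANTCA, and 8.97% of the 27025 genes with a window have it in any of their windows. Both shares count any base at N. The promoters of the 7 are shown around these letters and around TATAAA, the TATA box letters that help place transcription starts. They include 4 genes with TGANTCA, of which Serpinb2 has TATAAA in the stretch shown too, and Serpinb3 genes with a shared layout. Capitals mark both sets of letters, the strand is that of the gene, and the coordinates belong to GRCm38.p6 and not to the authors' build. Serpinb12 also has TATAAA, starting at position -220 from its annotated start, outside the stretch shown.
Serpinb5, chr1:106861015-106861061, plus strand: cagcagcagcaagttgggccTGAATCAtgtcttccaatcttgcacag
Serpinb12, chr1:106934384-106934430, plus strand: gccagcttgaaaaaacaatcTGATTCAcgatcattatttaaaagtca
Serpinb11, chr1:107362113-107362264, plus strand: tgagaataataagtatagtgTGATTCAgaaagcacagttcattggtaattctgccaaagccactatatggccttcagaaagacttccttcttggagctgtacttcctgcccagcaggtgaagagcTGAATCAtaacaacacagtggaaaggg
Serpinb2, chr1:107511309-107511419, plus strand: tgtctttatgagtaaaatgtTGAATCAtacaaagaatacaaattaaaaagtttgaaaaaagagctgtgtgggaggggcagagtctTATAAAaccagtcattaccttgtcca
Serpinb3a, chr1:107052343-107052388, minus strand: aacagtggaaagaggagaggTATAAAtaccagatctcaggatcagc
Serpinb3b, chr1:107161130-107161175, minus strand: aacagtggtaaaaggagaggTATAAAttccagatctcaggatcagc
Serpinb3c, chr1:107278377-107278422, minus strand: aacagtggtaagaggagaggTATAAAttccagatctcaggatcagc
Serpinb3a, Serpinb3b and Serpinb3c share a window that differs at 1 to 3 of 46 bases between them, with TATAAA and no TGANTCA. Counted from the annotated start, TATAAA begins at -65 in Serpinb3a, -41 in Serpinb3b and -31 in Serpinb3c. Serpinb3d, whose fold change lies close to theirs, is 45.7% identical to Serpinb3a over 250 upstream bases, while Serpinb3a is 77.0% identical to Serpinb3b and 71.5% to Serpinb3c. Serpinb3b and Serpinb3c are 88.1% identical there. The TATAAA letters stand in 13.6% of all windows and 15.7% of all genes, counted on either strand and anywhere in the window. Serpinb3d and Serpinb7 hold them on the opposite strand only, starting at -40 in Serpinb3d and at -239 and -33 in Serpinb7. The letters TTGCNNAA of C/EBP factors stood in promoters of Serpinb2 and Serpinb12, and in that of Serpinb3d, which did not pass the threshold. They stood in 10.8% of all windows and 12.2% of all genes. Those of grainyhead-like factors, AACNGGTT, stood in 0 of the 7, and in 2.09% of all windows and 2.35% of all genes.

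All listed markers of the outer epidermis had negative log2 fold changes, as the 7 genes did, though not all passed the threshold. In the marker and protease lists, fell and rose mean an adjusted p under 0.05 by the authors' DESeq2. At that threshold 2.46% of all genes fell and 0.63% rose. Of 10 suprabasal keratinocyte markers 9 fell and 0 rose, with a median log2 fold change of -1.53. Their implied levels summed to 63871 normalised counts in GNAQ R183Q skin, against 159998 in wild-type skin. The 4 with the smallest p were loricrin (Lor) at -3.70, Krt77 at -2.28, suprabasin (Sbsn) at -1.76 and Krt10 at -1.31 on the log2 scale, with DESeq2 adjusted p of at most 8.60e-12 (authors' deposited table). Of 9 periderm markers 4 fell (Ly6d at -1.64, Lgals3 at -1.58, Krt4 at -1.20 and Krt13 at -2.06) and 0 rose. All 9 had negative log2 fold changes, with a median of -1.20. Their levels summed to 21707 normalised counts in GNAQ R183Q skin, against 44992 in wild-type skin. Of 7 basal keratinocyte markers only Krt15 passed, at -1.01, the median was -0.09, and the sums were 54223 normalised counts in GNAQ R183Q skin and 64716 in wild-type skin. No marker of these lists was at 0, and the least expressed was filaggrin (Flg), with 2.60 normalised counts in GNAQ R183Q skin and 17.2 in wild-type skin. The part of these markers in the fall of the serpin genes was not tested.

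Blood cell markers were examined because Serpinb2 and several chromosome 13 serpins are also made by leukocytes. Of 8 macrophage markers 0 passed, and their sums were 6689 normalised counts in GNAQ R183Q skin and 6357 in wild-type skin. Of 9 neutrophil markers 0 passed, with 145 normalised counts in GNAQ R183Q skin and 247 in wild-type skin, and 7 of them averaged under 26.8 normalised counts. At an unadjusted p of 0.05 these lists held 0 and 1 lower genes. Over all 20152 genes, 1658 were lower and 1197 higher at that limit. Of 7 mast cell markers 2 fell, the protease genes Tpsb2 at -1.11 and Cma1 at -0.91 in the authors' deposited table, with sums of 9232 normalised counts in GNAQ R183Q skin and 14850 in wild-type skin.

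Of 21 proteases and related genes that serpins of this kind act on in various tissues, 20 were in the table, 4 fell and 0 rose, with a median log2 fold change of -0.19. The 4 were Cma1, which the mast cell list also holds, and 3 kallikrein genes. Klk5 had 6.91 normalised counts in GNAQ R183Q skin and 64.5 in wild-type skin (adjusted p 0.000199), by the authors' DESeq2. Klk7 had 1.81 in GNAQ R183Q skin and 12.4 in wild-type skin (authors' DESeq2 adjusted p 0.0464). Klk8 had 307 in GNAQ R183Q skin and 563 in wild-type skin (authors' DESeq2 adjusted p 0.0189). The urokinase gene Plau, whose product is the main partner of the Serpinb2 protein, was at 0.17 with an implied interval from -0.23 to 0.58. The cathepsin L gene Ctsl, a partner of human SERPINB3, was at 0.22 with an interval from -0.03 to 0.46. Neither passed the threshold.

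**Figure D5:**
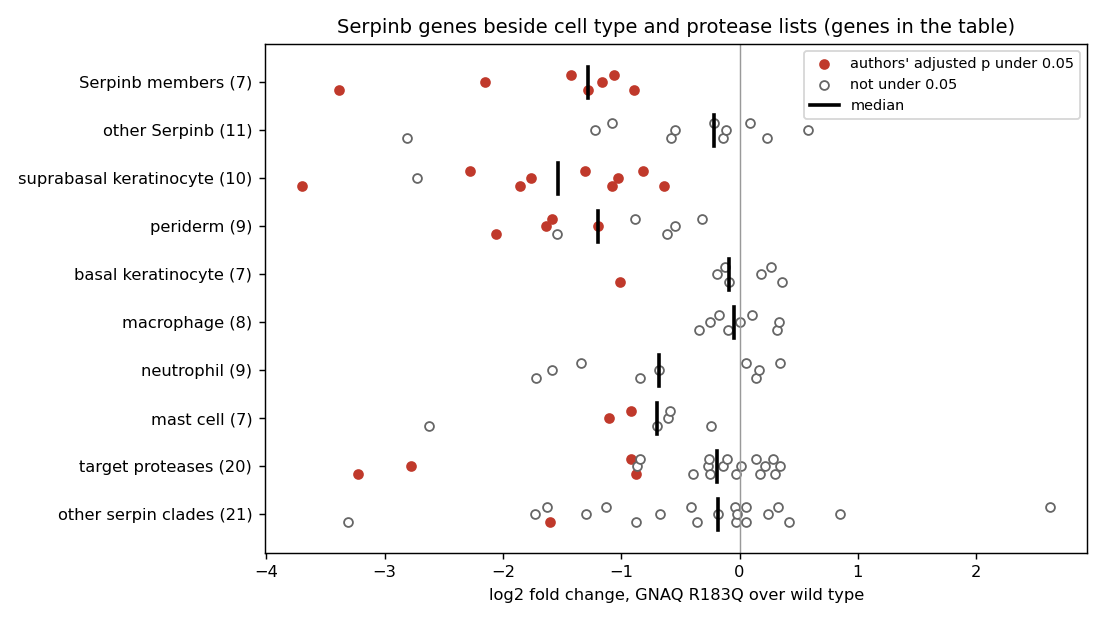
Log2 fold changes, GNAQ R183Q skin against wild-type skin, for the 7 serpin genes, the 11 other Serpinb genes, marker lists, target proteases and other serpin clades, with filled points for an authors' adjusted p under 0.05 and black bars for medians. The median of the 7, -1.28, lies between those of the suprabasal markers, -1.53, and the periderm markers, -1.20. The 7 were chosen by these fold changes, so the place of their median was not tested.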

How the data were processed

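RNA of 8 back skin samples (4 GNAQ R183Q, 4 wild type) was sequenced from stranded TruSeq libraries, per the labels' protocols. Per the submitters' processing notes, the tools include DESeq2 and the build is mm39. The aligner, counter, annotation, filters and model terms: not given in the sources used here. Mean expression is a signal the authors averaged over libraries, read here as normalised counts because it is not whole, never negative and sums to 2.68e+07. Library depth is unknown, and no counting interval or floor is printed. Per the file headers, the authors deposited a log2 fold change (GNAQ R183Q over control), its p-value and adjusted p-value, and, for each genotype, the mean and the median of a z-score of log2 CPM. These score values were summarised by the authors before deposit. Benjamini-Hochberg adjustment gave the deposited adjusted values back.

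Computed here with Python 3.11.15, scipy 1.17.1 and Biopython 1.88 were the implied levels, standard errors (absolute log2 fold change over the normal quantile of p) and intervals of 1.96 errors. Implied levels assume that the fold changes were not shrunken, which the sources used here do not state. Limits on libraries assume z-scores with the sample SD over 8 libraries; in 74 genes the deposited values sit exactly at the limit this sets (within 1e-06), and in none beyond it. The limits and the rebuilt model, with 6 residual degrees of freedom, were tested on simulated data. Transcripts and lengths came from GENCODE vM21 (GRCm38). Coding sequences were aligned where proteins had been planned, and a count test had been planned only for counts per library. Alignments were global, scored 2, -1, -5 and -1 for match, mismatch, gap opening and extension. All 18 Serpinb genes, the called or smallest-p genes of other lists, called or nearest neighbours, and up to 4 called markers per list were to be named; Flg, Bcl2, Plau, Ctsl, Serpinc1, Serpina3f and Serpinh1 were named after their values were seen. The genes and lists were chosen with earlier results of these data known. Tried alternatives were the rebuilt model, centring, an expression filter, a stricter threshold, a fold limit and removal of a length and GC trend.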

Additional observations from a re-analysis of the deposited data

How the results depend on the processing

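All 7 genes stayed called lower after centring on the median of all genes, after limiting the table to genes averaging at least 26.8 normalised counts and after removing a trend with transcript length and GC content. Of 42 values of single genes under 6 alternatives, 33 stayed called, 9 did not and 0 changed direction. The expression filter, the stricter threshold and the fold limit keep the deposited fold change, so no direction could change under them. Centring shifts every log2 fold change by only 0.007. The rebuilt linear model called 0 of the 7, 0 lower and 0 higher genes of the whole table, with adjusted p of 0.0742 to 0.3001 for the 7 and 0.0503 for the lowest of all genes; it shares no spread between genes. Serpinb3c alone lost its call at an adjusted p of 0.01 and at a 2-fold limit, which left 6 of the 7, and its adjusted p was 0.0477 once transcript length and GC content were corrected for. That correction gave 405 lower and 181 higher genes over the whole table, against 495 and 127 as deposited. Over the whole table, 197 lower and 40 higher genes were called with the 2-fold limit, and 331 lower and 55 higher genes at an adjusted p of 0.01. The other 11 Serpinb genes had 0 calls under each of the 6 alternatives. No paired analysis was possible because the table holds no value per library, and leaving out replicates was not run for the same reason. Depth per library is unknown, which limits statements on Serpinb11, Serpinb3d and less expressed genes to their implied intervals.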

Other observations

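Serpins of other clades, which are mostly secreted, held 1 called gene among 21 in the table, with a median log2 fold change of -0.18. Of all genes, 2.46% were called lower and 0.63% higher, so nothing is read from 1 call. Serpina3j, of the antichymotrypsin-like family, fell to 81.6 normalised counts in GNAQ R183Q skin, against 248 in wild-type skin, with -1.60 as its log2 fold change (DESeq2 adjusted p 1.21e-10, authors' deposited table) and -2.03 to -1.18 as the implied 95% interval. Serpinh1, the collagen chaperone and the most expressed serpin of the table, was at -0.18, and Serpinc1, the antithrombin gene, at 0.42 with an adjusted p of 0.128. Over all genes, 3.83% were separated with lower values in GNAQ R183Q skin and 2.56% with higher values. The z-scores leave no overlap for 3 of the 21 genes. Besides Serpina3j these were Serpinc1, with all 4 GNAQ R183Q libraries above all 4 wild-type libraries, and Serpina3f, with all 4 below. Serpina3f stood at 0.502 normalised counts in GNAQ R183Q skin, against 4.997 in wild-type skin (adjusted p 0.237 by the authors' DESeq2), so neither Serpinc1 nor Serpina3f passed the threshold. Serpinh1, Serpinc1 and Serpina3f were named after their values were seen.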
